A study of Mus musculus with 12 samples.

Results

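Visceral endoderm secreted and absorptive genes are described here in mouse embryonic stem cells (ESCs) and in day 3 cells sorted for Eomes, a T-box gene that marks nascent mesendoderm. The group was chosen by name and holds 9 genes: the secreted carriers Rbp4, Ttr and Afp, the apolipoproteins Apoa1, Apoa4 and Apob, the uptake receptor subunits Cubn and Amn, and the transcription factor Hnf4a. Each name matched 1 locus of the assembled transcriptome, so the 9 genes are 9 of 80012 counted loci, and all 9 were among the 20212 loci that entered the test. Poly(A) RNA from 12 libraries was sequenced, 4 in each of 3 groups. All groups derive from the EomesEGFP reporter line (strain label C57BL/6), in which EGFP sits at the start of the endogenous Eomes gene. ESC libraries came from undifferentiated cells (day 0) grown with leukemia inhibitory factor on mouse embryonic fibroblast feeders, so they can hold feeder RNA. Eo+ and Eo− libraries came from EGFP-positive and EGFP-negative cells that were sorted at day 3 from embryoid bodies made as hanging drops. Each sorted fraction is a mixture of cells defined by the Eomes reporter alone, and no further marker was used in the sort. Eomes is not limited to mesendoderm, since the paper also cites its induction in anterior visceral and definitive endoderm. The replicates carry the numbers 1, 2, 5 and 6 in every group, and values per library are given in that order throughout.

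The visceral endoderm is the outer epithelium of the early mouse conceptus, and it lines the yolk sac. It takes up maternal proteins and lipids through endocytic receptors at its apical surface, and it secretes plasma-type proteins and lipoproteins that the liver makes later in life. Hnf4a encodes a nuclear receptor that is required in this tissue for the expression of many of its secreted proteins.

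Sorting was checked by Eomes itself, which lay between 36.7 and 57.6 CPM (counts scaled to a common library size) in ESCs, between 116 and 167 CPM in Eo− and between 445 and 647 CPM in Eo+ cells. Libraries held 648413022 to 837308168 counts within loci, and 3 counts, taken as the floor of detection, equal 0.00353 to 0.00470 CPM. Intervals and floors cover counting error alone, since no molecular identifiers were used. Summed over 8 feeder fibroblast markers, ESC libraries held 91.3 to 231 CPM, Eo− libraries 25.5 to 35.7 CPM and Eo+ libraries 18.4 to 30.2 CPM. Over 7 markers of primitive blood and endothelium the sums were 34.3 to 62.6 CPM (ESC), 26.1 to 245 CPM (Eo−) and 94.4 to 414 CPM (Eo+). These sums mix directions, since Pecam1 fell against ESC. Over fits without 1 library, its log2 change was −5.18 to −4.03 in Eo+ and −2.02 to −1.43 in Eo−. All 7 of these blood and endothelial markers were highest in replicate 1 of Eo− and in replicate 1 of Eo+. Among them, Hbb-bh1, an embryonic beta-like globin, had 0 counts in ESC replicates 1 and 5. The part of these other cells in the results was not tested.

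The genes lie on 6 chromosomes of mm10 (GRCm38), and every one is annotated as protein coding. Apoa1 (chromosome 9, 46228329 to 46230466) and Apoa4 (chromosome 9, 46240696 to 46243459) are neighbours on the plus strand. Apob (12, 7977648 to 8016835) and Amn (12, 111270768 to 111276426) share a chromosome and the plus strand but are far apart. Cubn (2, 13276337 to 13491924, minus strand) and Hnf4a (2, 163506808 to 163572911, plus strand) share chromosome 2. Ttr (18, 20665250 to 20674324) and Afp (5, 90490714 to 90508907) are on the plus strand, and Rbp4 (19, 38116620 to 38125321) is on the minus strand. All values below count reads over the exons of these loci, and none of the 9 loci was merged with another named gene.

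RefSeq (GRCm38.p6) gave promoter windows, 250 bases before to 50 after the start site, for 8 of the 9 genes. Windows were searched on both strands for 3 patterns of letters bound by endoderm transcription factors. The HNF4 pattern CAAAGNNCA occurred in the windows of Apoa4, Apob, Afp and Cubn, and in 6.36% of 32851 promoter windows of the same length. The FOXA pattern TGTTTNC, present in 20.5% of all windows, occurred for Apoa1, Apob, Afp, Rbp4 and the upstream promoter of Hnf4a. The GATA pattern AGATAA, present in 11.2%, occurred for the upstream promoter of Hnf4a. Amn held none of the 3 patterns in its window. The 4 windows with an HNF4 match are shown because Hnf4a is itself among the 9 genes, which are described with their values below. Each is given 5′ to 3′ on the strand of its gene, up to the earlier of the RefSeq and GENCODE starts. Capitals mark matches to the HNF4 pattern, and in Apob and Afp also to the FOXA pattern.
Apoa4 (chr9:46240594-46240695, plus strand): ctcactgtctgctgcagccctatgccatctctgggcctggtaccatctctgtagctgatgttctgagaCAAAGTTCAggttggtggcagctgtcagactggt
Apob (chr12:7977427-7977647, plus strand): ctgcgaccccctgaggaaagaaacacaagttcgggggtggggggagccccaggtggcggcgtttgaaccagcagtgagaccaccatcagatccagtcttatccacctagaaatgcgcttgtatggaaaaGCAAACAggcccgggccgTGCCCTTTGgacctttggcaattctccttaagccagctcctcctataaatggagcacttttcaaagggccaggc
Afp (chr5:90490464-90490713, plus strand): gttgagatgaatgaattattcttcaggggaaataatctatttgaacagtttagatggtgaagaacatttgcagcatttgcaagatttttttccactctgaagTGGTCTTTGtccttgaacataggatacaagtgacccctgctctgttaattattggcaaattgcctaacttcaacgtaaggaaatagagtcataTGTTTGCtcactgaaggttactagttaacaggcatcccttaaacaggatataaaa
Cubn (chr2:13491877-13492126, minus strand): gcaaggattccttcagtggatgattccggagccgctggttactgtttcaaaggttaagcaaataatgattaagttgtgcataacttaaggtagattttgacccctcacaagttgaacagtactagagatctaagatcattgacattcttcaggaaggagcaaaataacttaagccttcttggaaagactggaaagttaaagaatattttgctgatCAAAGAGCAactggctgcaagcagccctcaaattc
From the RefSeq start, the HNF4 match begins at −182 in Apoa4, at −103 in Apob, at −148 in Afp and at −35 in Cubn. In Apob the FOXA match begins at −121, and in Afp it begins at −55. No matches overlapped in these windows. A match describes the letters only, and binding was not measured.

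Levels differed widely between the 9 genes, and they are compared here per length, as FPKM (CPM per kilobase of exon, mean ± SD, n = 4). In ESCs, Amn (1.06 ± 0.265) and Rbp4 (1.06 ± 0.328) were the most abundant, followed by Cubn (0.216 ± 0.105), Hnf4a (0.154 ± 0.0700) and Apoa1 (0.110 ± 0.0343). Apob (0.0723 ± 0.0172), Afp (0.0281 ± 0.00782), Ttr (0.00767 ± 0.00871) and Apoa4 (0.000352 ± 0.000704) were lower still. In Eo− cells Rbp4 led with 2.97 ± 0.594, ahead of Ttr (1.06 ± 1.39), Apoa1 (0.805 ± 0.691) and Amn (0.393 ± 0.0596). The other 5 genes lay between 0.0622 and 0.117 FPKM in Eo− cells, within the spread of each other. In Eo+ cells the order was Ttr (7.97 ± 8.15), Rbp4 (5.94 ± 1.22), Apoa1 (3.95 ± 3.38), Apob (1.21 ± 1.14), Hnf4a (1.20 ± 0.934), Afp (0.685 ± 0.649), Apoa4 (0.637 ± 0.541), Amn (0.344 ± 0.145) and Cubn (0.134 ± 0.170). Neighbours in this Eo+ order did not differ beyond the spread between libraries. The receptor subunits were thus among the top 3 genes in ESCs and at the bottom in Eo+ cells.

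**Figure D1:**
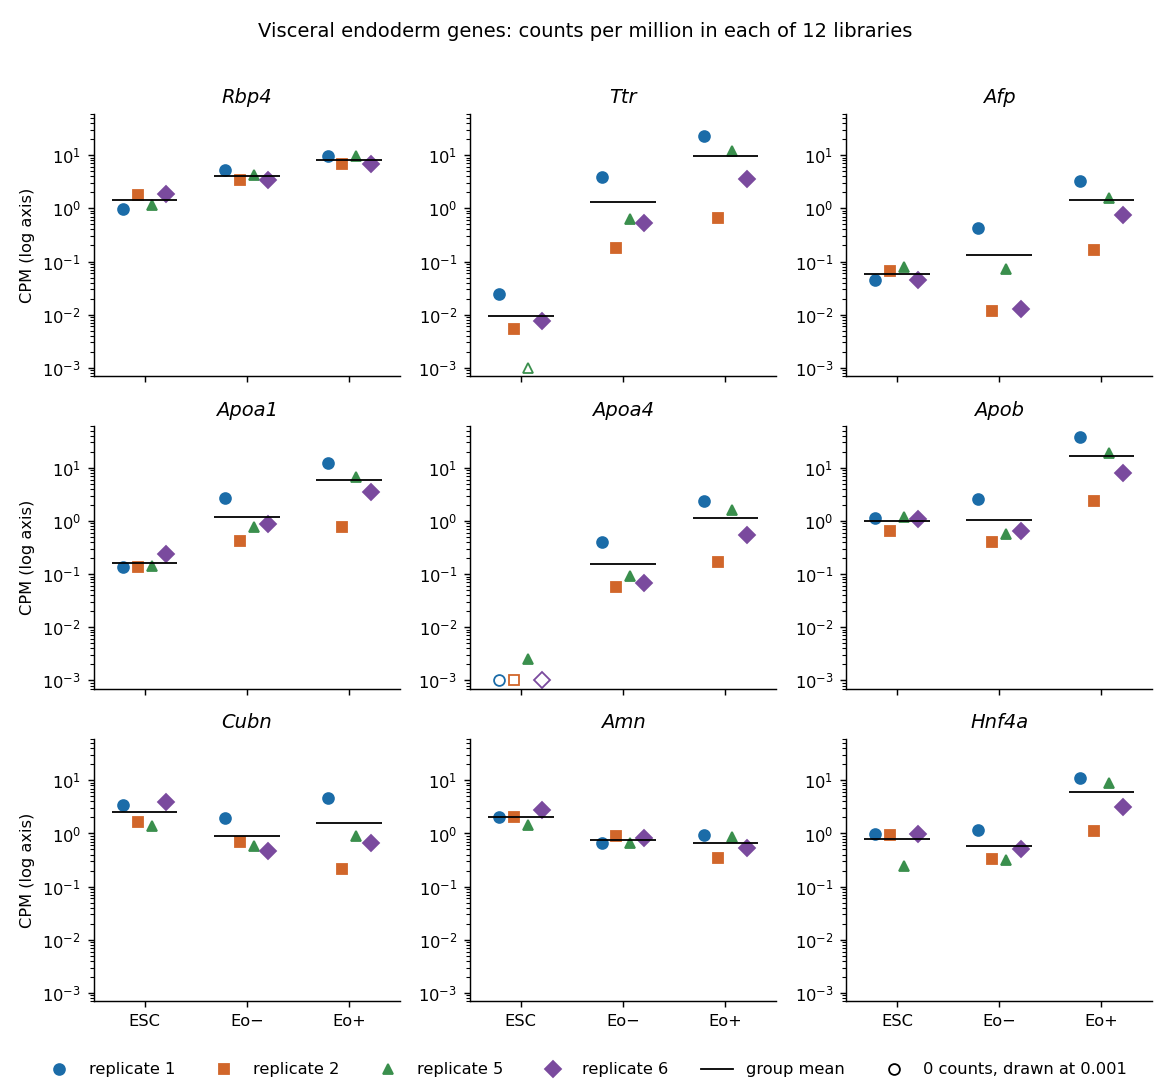
CPM (log axis) of the 9 genes in each of the 12 libraries by group, with a marker shape and color for each replicate number, a black line for the group mean, and open markers at 0.001 for libraries with 0 counts. Rbp4 rises in 3 compact steps, Amn and Cubn are lower in most day 3 libraries, and the other 6 genes spread widely within Eo+, with replicate 1 highest and replicate 2 lowest.

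Rbp4, which encodes the plasma carrier of retinol, was the gene with the least spread between the Eo+ libraries. Its level was 0.967, 1.8, 1.17 and 1.87 CPM in ESC, 5.19, 3.46, 4.19 and 3.48 CPM in Eo−, and 9.54, 6.69, 9.71 and 6.74 CPM in Eo+ libraries. The 3 groups did not overlap, with ESC lowest and Eo+ highest. Rbp4 rose in all comparisons, with a log2 fold change of 2.54 ± 0.23 (SE) in Eo+ vs ESC (adjusted p = 3.57e-07), 1.54 ± 0.24 in Eo− vs ESC (adjusted p = 0.000111) and 1.0 ± 0.20 in Eo+ vs Eo− (adjusted p = 0.0013). These and all other adjusted p-values come from limma with Benjamini-Hochberg adjustment over the 20212 loci, with 0.05 as the threshold for a call. Because RNA was taken from whole fractions, fewer cells that express a gene and less RNA per cell cannot be told apart here or below.

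Ttr encodes transthyretin, which carries thyroid hormone and the Rbp4 protein. ESC libraries held 20, 4, 0 and 5 counts of Ttr, or 0.0246, 0.00534, 0 and 0.00749 CPM. In Eo− libraries the level was 3.83, 0.183, 0.625 and 0.539 CPM, and in Eo+ libraries 22.8, 0.661, 11.8 and 3.55 CPM. Every day 3 library was above every ESC library, whereas Eo+ replicates 2 and 6 fell within the range of Eo−. Against ESC, Ttr rose in Eo+ (log2 fold change 9.89 ± 2.93, adjusted p = 0.0085), a fitted size that depends on the handling of the few ESC counts. The Eo− vs ESC change was 7.06 ± 3.0 and was not called (adjusted p = 0.0587). It was called without Eo− replicate 2 (adjusted p = 0.0399) or without Eo+ replicate 1, 2 or 5 (adjusted p = 0.0206, 0.0128 and 0.0487). Between the sorted fractions the log2 difference was 2.83 ± 1.09 and just missed the threshold (adjusted p = 0.0503). With the replicate number as a block over all 12 libraries, which pairs the fractions of a number, it was 2.80 ± 0.29 and was called (adjusted p = 3.02e-05). With the same block in the sorted fractions alone it was 2.94 ± 0.24 (adjusted p = 5.04e-05). It was also called without Eo− replicate 1 (3.68, adjusted p = 0.0274) or without Eo+ replicate 2 (3.86, adjusted p = 0.00203).

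Afp encodes alpha-fetoprotein, an albumin-related plasma protein of the yolk sac and fetal liver. It was measured at 0.0454, 0.0667, 0.0780 and 0.0449 CPM in ESC libraries, at 0.424, 0.0115, 0.0726 and 0.0126 CPM in Eo− libraries, and at 3.28, 0.167, 1.54 and 0.742 CPM in Eo+ libraries. Eo− replicates 2 and 6 were below every ESC library, Eo− replicate 1 was above every ESC library, and Eo+ replicate 2 lay within the Eo− range. Afp rose in Eo+ cells against ESC (3.95 ± 1.15, adjusted p = 0.00768) and against Eo− (4.21 ± 1.19, adjusted p = 0.0108). Its Eo− vs ESC value was −0.26 ± 1.47 (adjusted p = 0.889), and its sign differed between alternatives. Alb, the albumin gene next to Afp on chromosome 5, was too low to enter the test and did not exceed 0.0205 CPM in any library.

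Apoa1, which encodes the main protein of high-density lipoprotein, was low but present in ESCs. Its level was 0.138, 0.136, 0.139 and 0.240 CPM in ESC, 2.71, 0.428, 0.765 and 0.882 CPM in Eo−, and 12.4, 0.754, 6.80 and 3.49 CPM in Eo+ libraries. All day 3 libraries lay above all ESC libraries, and Eo+ replicate 2 lay within the Eo− range. Apoa1 rose in Eo+ vs ESC (4.62 ± 1.01, adjusted p = 0.00105). Its Eo− vs ESC change of 2.59 ± 1.08 was not called (adjusted p = 0.0537), but was called without Eo− replicate 2 (adjusted p = 0.0388) or without Eo+ replicate 1, 2 or 5 (adjusted p = 0.0192, 0.00618 and 0.048). Between the fractions, Apoa1 was higher in Eo+ by 2.03 ± 0.76 (adjusted p = 0.0458). This call rests on the whole set of libraries, since it was lost in 10 of the 12 fits without 1 library (adjusted p up to 0.134). The exceptions were the fits without Eo− replicate 1 and without Eo+ replicate 2. With the replicate block over all 12 libraries the difference was 2.15 ± 0.38 (adjusted p = 0.000961), and in the sorted fractions alone 2.19 ± 0.22 (adjusted p = 0.000147).

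Apoa4 encodes an apolipoprotein of triglyceride-rich particles and was nearly absent from ESCs, with 2 counts in replicate 5 and 0 in the others. Eo− libraries held 0.409, 0.0564, 0.0901 and 0.0681 CPM, and Eo+ libraries 2.33, 0.172, 1.58 and 0.547 CPM. Eo+ replicate 2 was again the only Eo+ library inside the Eo− range. The mean Eo+ level was 1743 times the level of the pooled ESC libraries, with a 95% interval of 483 to 14396.5 that covers the counting error of the 2 ESC counts only. Apoa4 rose in Eo+ against ESC (fitted log2 change 9.6 ± 2.0, adjusted p = 0.000726), in Eo− against ESC (6.81 ± 2.08, adjusted p = 0.0122) and in Eo+ against Eo− (2.79 ± 0.85, adjusted p = 0.0167). The last of these was not called without Eo− replicate 2 (2.47, adjusted p = 0.0516).

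Between Apoa1 and Apoa4 lies Apoc3, and beyond Apoa4 lies Apoa5, which encode modulators of triglyceride clearance. Neither entered the test. Apoc3 had 0 counts in all 4 ESC libraries, 0.0742, 0.0167, 0.0161 and 0.0114 CPM in Eo−, and 0.138, 0.00652, 0.156 and 0.00784 CPM in Eo+ libraries. Its mean Eo+ level was at least 63.0 times the ESC level by the 95% counting limit for 0 ESC counts. It was 77.5 times the ESC level with ESC taken at 3 counts over the whole group. Apoa5 reached 0.00934 to 0.0659 CPM in ESC, 0.0436 to 0.0896 CPM in Eo− and 0.145 to 0.436 CPM in Eo+ libraries, and its Eo+ libraries lay above all others.

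Apob encodes the structural protein of chylomicrons and low-density lipoprotein, which the yolk sac needs to export lipid. Its level was 1.14, 0.653, 1.17 and 1.08 CPM in ESC, 2.54, 0.396, 0.568 and 0.647 CPM in Eo−, and 38.3, 2.36, 18.6 and 8.04 CPM in Eo+ libraries. ESC and Eo− overlapped, Eo+ was above all ESC libraries, and Eo+ replicate 2 was just below Eo− replicate 1. Apob rose in Eo+ cells, both against ESC (3.46 ± 0.87, adjusted p = 0.00285) and against Eo− (3.78 ± 0.89, adjusted p = 0.00355). The Eo− vs ESC value was −0.32 ± 1.07 (adjusted p = 0.816). Among the 3 apolipoproteins, Apoa1 and Apoa4 were thus above the ESC range in every Eo− library, while 3 of the 4 Eo− libraries of Apob were below it.

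Cubilin, the product of Cubn, is a large peripheral receptor for vitamin B12 bound to intrinsic factor, for albumin and for apolipoprotein A-I, and amnionless, the product of Amn, anchors it to the membrane. Amn was measured at 2.03, 2.01, 1.46 and 2.72 CPM in ESC libraries, at 0.650, 0.882, 0.676 and 0.839 CPM in Eo− libraries, and at 0.955, 0.343, 0.842 and 0.525 CPM in Eo+ libraries. All 8 day 3 libraries were below all 4 ESC libraries. Amn fell by 1.69 ± 0.29 on the log2 scale in Eo+ vs ESC (adjusted p = 0.000119) and by 1.41 ± 0.28 in Eo− vs ESC (adjusted p = 0.000634). The difference between the fractions was −0.29 ± 0.31 (adjusted p = 0.481).

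Cubn was measured at 3.37, 1.62, 1.36 and 3.86 CPM in ESC, at 1.93, 0.685, 0.572 and 0.478 CPM in Eo−, and at 4.56, 0.218, 0.912 and 0.659 CPM in Eo+ libraries. Replicate 1 was far above the other libraries in both sorted fractions, and in Eo+ it exceeded all ESC libraries. No comparison was called, with −1.38 ± 0.70 in Eo+ vs ESC (adjusted p = 0.097), −1.56 ± 0.70 in Eo− vs ESC (adjusted p = 0.0715) and 0.18 ± 0.76 in Eo+ vs Eo− (adjusted p = 0.868). Without Eo+ replicate 1, Cubn fell in Eo+ vs ESC by 2.18 (adjusted p = 0.00458). Cubn was called lower in Eo− vs ESC without Eo− replicate 1 (adjusted p = 0.0391), Eo+ replicate 1 (adjusted p = 0.0156) or Eo+ replicate 2 (adjusted p = 0.0399). The ESC libraries also carried more feeder marker RNA than the day 3 libraries. Within ESC, replicate 6 was highest in both Amn and Cubn and had the lowest feeder marker sum (91.3 CPM, against up to 231 CPM), and the part of feeder cells in these ESC levels was not tested.

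Hnf4a was measured at 0.963, 0.917, 0.247 and 0.963 CPM in ESC, at 1.18, 0.333, 0.324 and 0.502 CPM in Eo−, and at 11, 1.11, 8.91 and 3.11 CPM in Eo+ libraries. ESC and Eo− overlapped, all Eo+ libraries were above all ESC libraries, and Eo+ replicate 2 was just below Eo− replicate 1. Hnf4a was higher in Eo+ than in ESC (2.67 ± 0.74, adjusted p = 0.00534) and than in Eo− (3.08 ± 0.76, adjusted p = 0.00481). It was −0.41 ± 0.86 in Eo− vs ESC (adjusted p = 0.709). In both comparisons with Eo+ it moved in the direction of the 3 apolipoproteins and Afp, with the same Eo+ libraries high (1 and 5) and low (2).

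Over the 9 genes, 7 were called higher and 1 lower in Eo+ vs ESC, where 66.7% of all tested loci were called, 32.9% higher and 33.8% lower. The median log2 fold change of the 9 was 3.46, against −0.01 over all tested loci. Apoa4, Apob and Afp entered the test through their Eo+ level alone (mean above 0.1 FPKM), so their differences in Eo+ are not independent of that filter. Between Eo− and ESC, 2 genes were called higher (Apoa4 and Rbp4) and 1 lower (Amn), where 57.3% of loci were called, 27.9% higher and 29.4% lower, and the median was −0.26 against 0.02 over all loci. This count of 3 was 5 by edgeR and by DESeq2. It rose to 5 without Eo− replicate 2 or Eo+ replicate 5, and to 6 without Eo+ replicate 1 or 2. Eo+ libraries enter this comparison only through the spread estimated over all 12 libraries. With the 2 groups fitted alone, 6 were called. Between the sorted fractions, 6 genes were called higher in Eo+ and 0 lower, where 43.4% of loci were called, 21.2% higher and 22.2% lower. The 3 genes not called there were Ttr, Amn and Cubn, of which Ttr had an unadjusted p under 0.05 and was called with the replicate block. The median was 2.79 against −0.03 over all loci. Comparisons that involve the same group share its 4 libraries, so their values are not independent of each other.

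The same values were also read by whether the libraries of 2 groups overlapped. For Eo+ vs ESC, 8 of the 9 genes had no overlap, 7 higher and Amn lower, where 29.6% of tested loci were higher and 30.2% lower without overlap. For Eo− vs ESC, 5 genes had no overlap (Rbp4, Ttr, Apoa1 and Apoa4 higher, Amn lower), against 25.1% and 26.6% of loci. For the sorted fractions, Rbp4 alone among the 9 had no overlap, against 21.1% of loci higher and 21.7% lower.

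**Figure D2:**
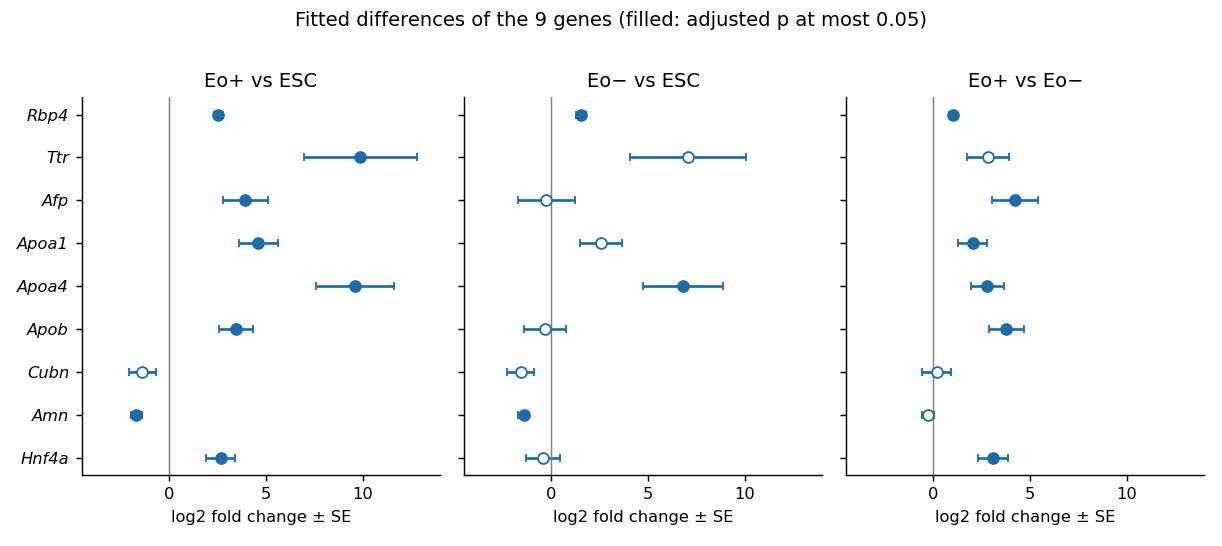
Log2 fold change with its standard error (horizontal bars) for the 9 genes in the 3 comparisons, with filled markers for called genes. In the first panel all genes but Cubn and Amn lie to the right of 0, with Ttr and Apoa4 near 10 and wide bars, and between the fractions the values run from −0.29 for Amn to 4.21 for Afp.

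Each replicate number gives an Eo+ and an Eo− library, and their ratio was taken within the number. Eo+ was higher than Eo− in all 4 numbers for 7 of the 9 genes, against 30.8% of tested loci, and none of the 9 was lower in all 4, against 31.6% of loci. The ratio of CPM ranged from 1.84 to 2.31 for Rbp4, from 3.61 to 18.9 for Ttr, from 1.76 to 8.89 for Apoa1, from 3.05 to 17.5 for Apoa4, from 5.96 to 32.8 for Apob, from 7.75 to 58.8 for Afp and from 3.32 to 27.5 for Hnf4a. Replicate 5 held the highest ratio for Rbp4, Ttr, Apoa1, Apoa4, Apob and Hnf4a, and replicate 6 did for Afp. For Cubn the ratio ran from 0.318 to 2.36 and was above 1 in 3 numbers, and for Amn it ran from 0.389 to 1.47 and was above 1 in 2 numbers. Replicate 2 gave the lowest ratio for both receptor subunits. Taken as whole groups, the Eo+ and Eo− libraries overlapped for 6 of the 7 genes that were higher in every number, all but Rbp4.

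**Figure D3:**
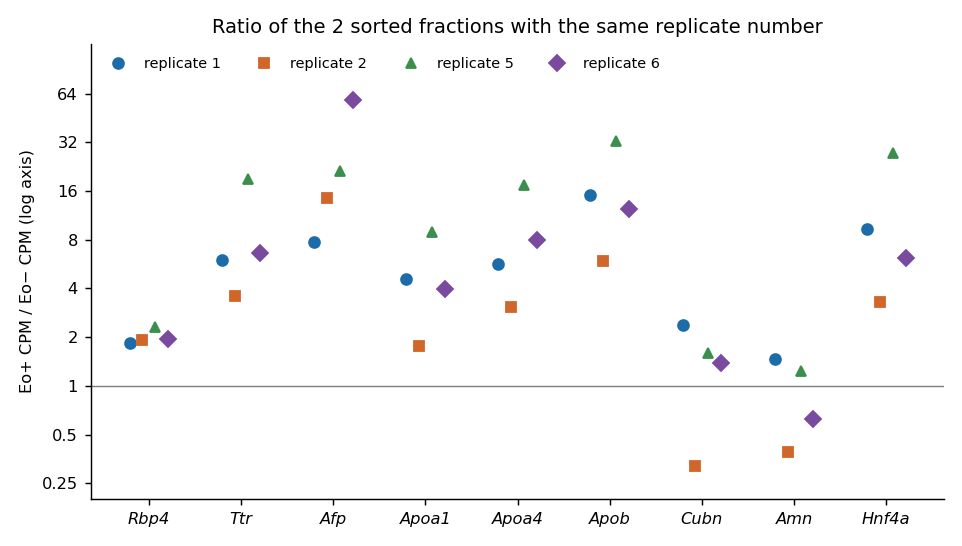
Ratio of Eo+ CPM to Eo− CPM (log axis) for the 2 libraries that share a replicate number, with 4 points per gene and a grey line at 1. All points of Rbp4, Ttr, Afp, Apoa1, Apoa4, Apob and Hnf4a lie above 1, from 1.76 to 58.8, whereas points of Cubn and Amn lie on either side of 1.

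Within Eo+ the 4 libraries kept 1 order across genes. Replicate 1 was highest, then 5, then 6, then 2 for 8 of the 9 genes, and 7.15% of the 20212 tested loci had this order. It was also the order of 5 of 10 apolipoprotein and lipoprotein assembly genes, 5 of 12 plasma-type secreted genes, 4 of 8 further visceral endoderm markers and 3 of 7 markers of blood and endothelium. It held for 3 of 12 uptake genes, 2 of 11 endoderm transcription factors, 1 of 9 parietal endoderm, 1 of 7 definitive endoderm and 1 of 8 feeder markers. Rbp4 was the exception, with replicate 5 (9.71 CPM) just above replicate 1 (9.54 CPM). All 9 genes were lowest in replicate 2, against 23.3% of loci. In Eo− the same order was found for 4 of the 9 genes, against 7.31% of loci, and replicate 1 was highest for 8 of 9, all but Amn, against 30.5% of loci. Eo− replicate 1 was also highest for 8 of 9 parietal endoderm markers and 7 of 11 endoderm transcription factors. In ESC the commonest order among them was 6, 1, 2, 5, which held for 3 of the 9 genes against 5.24% of loci.

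The distance between these libraries was large. The highest Eo+ library exceeded the lowest by 34.5-fold for Ttr, 20.9-fold for Cubn, 19.7-fold for Afp, 16.5-fold for Apoa1, 16.2-fold for Apob, 13.5-fold for Apoa4 and 9.96-fold for Hnf4a. It was 2.78-fold for Amn and 1.45-fold for Rbp4. The SD of log2(CPM + 0.01) over the Eo+ libraries was 1.52 to 2.23 for the 7 genes with the widest spread, 0.66 for Amn and 0.30 for Rbp4, against a median of 0.20 over all tested loci. Most transcription factors of the endoderm varied less in the same libraries. The highest to lowest deviation from the Eo+ mean was 0.35 to −0.66 for Gata4 and 0.23 to −0.29 for Gata6 on the log2 scale. The markers of blood and endothelium were highest in the same Eo+ library, replicate 1, but lowest in replicate 2 for 4 of 7. In the order 1, 5, 6 and 2, the Eo+ libraries held 779955411, 686055753, 648413022 and 786530741 counts within loci, and the part of depth in the order was not tested.

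**Figure D4:**
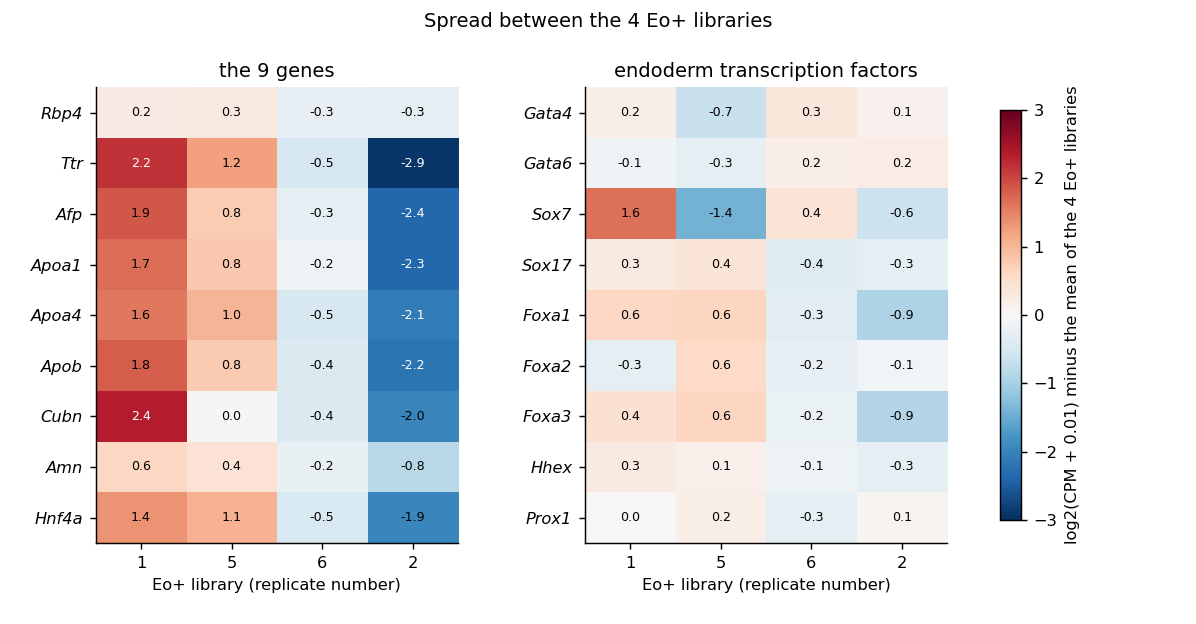
Deviation of each Eo+ library from the mean of the 4 Eo+ libraries, in log2(CPM + 0.01), for the 9 genes and for 9 tested endoderm transcription factors, with libraries arranged as replicates 1, 5, 6 and 2. Most rows of the 9 genes run from red (up to 2.35 for Cubn) to blue (down to −2.91 for Ttr), with Rbp4 and Amn paler, while the transcription factors other than Sox7 stay within 1 of their mean.

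Other genes of the same functions were described from fixed lists, each read against the shares of all loci given above. Of 10 further genes for apolipoproteins and lipoprotein assembly, 7 were tested. Against ESC, 1 rose in Eo+, 4 fell and 2 were not called, with a median log2 change of −1.0. Mttp, the microsomal transfer protein that loads lipid onto the Apob protein, was the riser at 0.74 ± 0.28 (adjusted p = 0.0293). Apobec1, the enzyme that edits Apob mRNA, fell by 5.28 ± 0.30 (adjusted p = 5.08e-09), from 7.13 to 12.4 CPM in ESC to 0.155 to 0.502 CPM in Eo+. Apoa2, the second protein of high-density lipoprotein, fell by 4.18 ± 0.47 (adjusted p = 2.49e-06), opposite to Apoa1. Apoe, counted in 1 locus with Tomm40, was at −0.44 ± 0.18 (adjusted p = 0.0471), and this call was lost in 8 of 12 fits without 1 library. Against ESC, 0 rose in Eo− and 4 fell, with Apoc2 lowest at −2.72 ± 0.83 (adjusted p = 0.0124, counted in 1 locus with Apoc4) and Apobec1 at −2.16 ± 0.22 (adjusted p = 2.12e-06). Between the fractions 2 were higher in Eo+, Mttp (1.18 ± 0.29, adjusted p = 0.00442) and Apom (1.26 ± 0.43, adjusted p = 0.0298), and 3 were lower. The count of 5 called in Eo+ vs ESC was 3 without ESC replicate 1, ESC replicate 2 or Eo+ replicate 5. Mttp was not called in Eo+ vs ESC without ESC replicate 1, 2 or 5 or Eo+ replicate 1 or 5 (adjusted p up to 0.0979), nor was Apom in Eo+ vs Eo− without Eo− replicate 2, 5 or 6 or Eo+ replicate 1 or 5 (up to 0.0775).

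All 12 further genes of receptor-mediated uptake were tested. Of these, 7 rose, 4 fell and 1 was not called in Eo+ vs ESC (median 0.44). Dab2, the endocytic adaptor that links cubilin and megalin to clathrin, rose by 2.16 ± 0.43 (adjusted p = 0.000501), from 7.03 to 10.2 CPM in ESC to 18.2 to 79.5 CPM in Eo+. Lrp2, which encodes megalin, the partner receptor of cubilin, fell by 2.81 ± 0.29 (adjusted p = 1.15e-06), from 28.3 to 49.5 CPM in ESC to 3.85 to 10.5 CPM in Eo+. Its Eo− libraries, at 36.0 to 54.5 CPM, overlapped ESC (0.21 ± 0.20, adjusted p = 0.399). Stra6, the membrane receptor for the Rbp4 protein, rose by 1.72 ± 0.23 in Eo+ vs ESC (adjusted p = 1.24e-05). Fcgrt, the neonatal Fc receptor, fell by 3.99 ± 0.27 (adjusted p = 2.53e-08), and the locus that joins the folate receptors Folr1 and Folr2 fell by 5.11 ± 0.46 (adjusted p = 2.9e-07). In Eo− cells 4 rose and 3 fell against ESC (median 0.33). The largest changes were the falls of the Folr1 locus (−3.47 ± 0.38, adjusted p = 4.01e-06) and of Fcgrt (−2.90 ± 0.24, adjusted p = 4.27e-07), and the largest rises were those of Scarb1, a receptor for high-density lipoprotein (1.20 ± 0.14, adjusted p = 9.71e-06), and Tcn2, a vitamin B12 carrier (0.82 ± 0.17, adjusted p = 0.000916). Between the fractions 4 were higher and 4 lower in Eo+ (median 0.06), with Dab2 up by 1.63 ± 0.40 (adjusted p = 0.00455), Stra6 up by 1.29 ± 0.22 (adjusted p = 0.000356) and Lrp2 at −3.02 ± 0.29 (adjusted p = 3.4e-06).

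Of 12 plasma-type secreted proteins of yolk sac and liver, 9 were tested. Eo+ vs ESC gave 6 that rose, 2 that fell and 1 not called. Fgb, Ambp and Plg among the risers passed the level filter through Eo+ alone and F2 among the falls through ESC alone, so these counts lean on the filter and describe the tested genes only. The untested Alb, Serpind1 and Fga had a mean below 0.1 FPKM in every group, and their ESC and Eo+ libraries overlapped. Fgb, the fibrinogen beta chain, had 1 count in all ESC libraries together and 0.574, 0.0418, 0.258 and 0.136 CPM in Eo+ libraries. Its mean Eo+ level was 761 times the level of the pooled ESC libraries (95% counting interval 137 to 30059). Ambp, a precursor of a protease inhibitor and a lipocalin, rose by 5.19 ± 1.23 (adjusted p = 0.00196). Ahsg, fetuin-A, fell by 3.03 ± 0.25 (adjusted p = 1.42e-07), and F2, prothrombin, fell by 1.25 ± 0.42 (adjusted p = 0.0179, and not called without Eo+ replicate 2 or 6, at 0.0738 and 0.059). Eo− vs ESC gave 1 that rose, Vtn, the adhesive plasma protein vitronectin (2.77 ± 0.38, adjusted p = 2.92e-05), and 3 that fell. Trf, transferrin, is counted in 1 locus with Srprb and Gm20425, whose reads cannot be told apart (0.38 ± 0.08 in Eo+ vs ESC, adjusted p = 0.000811). Eo+ vs Eo− gave 6 that rose and 1 that fell, with Fgb at 6.25 ± 1.47 (adjusted p = 0.00363) and Ambp at 2.76 ± 0.88 (adjusted p = 0.0216). This count of 7 was 4 without Eo− replicate 2 or 5, where Ambp was not called (adjusted p = 0.0672 and 0.0602). Fgb had 0 counts in Eo− replicates 2, 5 and 6, so its fitted size against Eo− depends on how those libraries are handled.

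Of 11 endoderm transcription factors reported here, 9 were tested. Of these, 9 rose in Eo+ vs ESC (median 4.49), and 8 were higher in Eo+ than in Eo− (median 2.80). The untested Hnf4g and Onecut1 were under the level filter. Onecut1, whose locus also holds Gm16551 and Gm20649, had a mean of 1.38 CPM in ESC, 0.325 CPM in Eo− and 0.638 CPM in Eo+. Hnf4g had means of 0.00185, 0.0389 and 0.118 CPM in the same order. Sox17 rose by 6.22 ± 0.42 (adjusted p = 2.09e-08) and Gata4 by 5.89 ± 0.39 (adjusted p = 2.02e-08) in Eo+ vs ESC, and Gata6 was the largest rise in Eo+ vs Eo− (4.92 ± 0.28, adjusted p = 7.61e-08). Gata4, Gata6 and Sox17 are also used by mesoderm or definitive endoderm, so the list does not mark visceral endoderm alone. Against ESC, 5 rose in Eo−, with Prox1, a homeodomain factor of liver precursors, at 2.88 ± 0.19 (adjusted p = 5.8e-08).

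**Figure D5:**
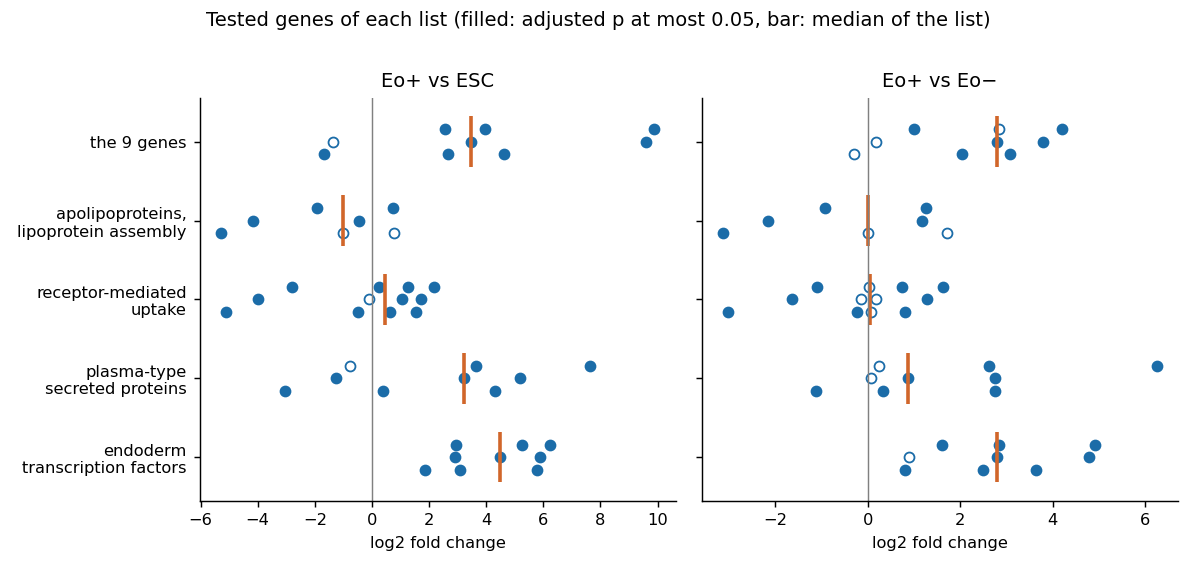
Log2 fold change of every tested gene in the 9 genes and 4 further lists, for both contrasts of Eo+, with filled points for called genes and an orange bar at the median of each list. Medians in Eo+ vs ESC run from −1.0 for apolipoproteins and lipoprotein assembly to 4.49 for endoderm transcription factors, and the 9 genes have 3.46.

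A second list of 8 visceral endoderm markers, which holds none of the 9 genes, was used to check the label. Against ESC, 4 rose in Eo+, 1 fell and 3 were not called (median 0.74), and against Eo− 5 rose and 1 fell (median 1.02). In Eo− vs ESC, 1 rose, 1 fell and 6 were not called (median −0.12). Over all tested loci, 32.9% were higher and 33.8% lower in Eo+ vs ESC, and 21.2% and 22.2% in Eo+ vs Eo−. In Eo− vs ESC these shares were 27.9% and 29.4%. The 8 markers thus gave a mixed check of the label. The largest rise was that of Car4, a membrane-bound carbonic anhydrase, at 4.41 ± 0.22 in Eo+ vs ESC (adjusted p = 1.69e-09) and 3.60 ± 0.22 in Eo− vs ESC (adjusted p = 3.53e-08). Its Eo+ libraries were ordered 5, 6, 1, 2, unlike the 9 genes. Spink1, a secreted protease inhibitor named Spink3 in the deposited annotation, rose by 2.92 ± 0.81 in Eo+ vs ESC (adjusted p = 0.00543) with 156, 14.8, 151 and 49.8 CPM in Eo+ libraries. Rhox5, an X-linked homeobox gene of extraembryonic endoderm, fell by 3.72 ± 0.16 (adjusted p = 6.04e-10). Markers of neighbouring lineages moved in the same libraries. Of 7 definitive endoderm markers, 6 rose in Eo+ vs ESC, of which Nepn passed the level filter through Eo+ alone, and the level of all 7 summed to 702 to 1032 CPM in ESC and 1516 to 2774 CPM in Eo+ libraries. Most of the ESC sum was Trh, which was not called (−0.08 ± 0.31, adjusted p = 0.828), and without it the sum was 5.17 to 18.6 CPM in ESC and 744 to 1226 CPM in Eo+. Of 9 parietal endoderm markers, 4 rose and 2 fell (median 0.15), with sums of 614 to 716 CPM in ESC and 898 to 1138 CPM in Eo+. The 9 genes themselves summed to 5.63 to 10.8 CPM in ESC, 6.43 to 18.9 CPM in Eo− and 12.5 to 105 CPM in Eo+ libraries, so they remained a small part of the RNA of each fraction.

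Likeness to the 9 genes was measured over the 12 libraries with the mean of their standardised log2(CPM + 0.01) profiles. Apob (r = 0.951), Hnf4a (0.939), Afp (0.938) and Apoa1 (0.916) were closest to this mean, which each gene also enters, and Apoa4 (0.870), Ttr (0.847) and Rbp4 (0.764) followed. Cubn (0.283) and Amn (−0.285) were not close to it. Among 15538 other loci with a symbol and at least 0.1 CPM in a group, the 5 most alike were Plg (r = 0.98), Fgb (0.960), Dab2 (0.959), 1700011H14Rik (0.957) and Parm1 (0.954). Plg encodes plasminogen, a plasma protease precursor, and it was measured at 1.81, 0.0848, 0.962 and 0.339 CPM in the Eo+ libraries, in the same order as the 8 genes above. Dab2 was measured at 79.5, 18.2, 54.5 and 28.7 CPM there. The libraries fall into 3 groups that share culture and sort, so these values of r describe the profiles and carry no test.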

How the data were processed

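Poly(A) RNA-Seq was measured in 12 libraries of 3 groups (ESC, Eo− and Eo+, 4 each). The authors mapped stranded paired reads to mm10 with STAR, for which the submitters' processing notes give version 2.0.4 and the study's methods another. They assembled transcripts with Cufflinks 2.2.1 on the Ensembl annotation and counted reads per locus with HTSeq 0.6.1 in its union mode with strand. These unscaled whole-number counts were deposited for 80012 loci, plus 5 tally lines that were left out. Alignments tallied as not unique (22.4% to 26.2%), outside any locus (2.65% to 3.60%) or ambiguous (0.0150% to 0.0193%) were not counted, so reads shared by near-identical genes are missing. A deposited normalized table holds a signal that the authors made by dividing counts by 1 constant per library, and here it served only as a list of loci for an alternative. The deposited transcript annotation gave exons for 79655 loci. Columns of other samples numbered 0.

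A locus was tested when its mean FPKM, computed from counts and summed exon length, exceeded 0.1 in at least 1 group and it held a transcript matched to Ensembl, or one of at least 2 exons and 200 bp (20212 loci). Counts were transformed by voom and fitted with limma 3.58.1 in R 4.3.3, with library sizes scaled by TMM in edgeR 4.0.16 and 1 mean per group over all 12 libraries. The moderated tests were two-sided (13.5 degrees of freedom), with Benjamini-Hochberg adjustment over all tested loci. The fit was tested on simulated data. CPM use the TMM-scaled library sizes. Log2 levels carry a pseudocount of 0.01 CPM. For genes with few ESC counts, the mean Eo+ CPM was divided by the pooled ESC level (the ESC counts over the summed scaled library sizes), with an interval from the exact Poisson limits of the ESC counts alone.

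Groups come from the labels. The study describes the libraries as 4 differentiation sets, and the labels do not say that a number marks a set. Deviations from the group means correlated at 0.6, 0.297, 0.359 and 0.377 between the Eo+ and Eo− libraries of a number, so the numbers were taken to pair these fractions. The genes and lists were chosen with earlier results of these data known. Some genes of the transcription factor list are not reported here, and its counts are over the rest. Genes named from a list are, per comparison, up to 2 called genes with the largest rise and 2 with the largest fall, and list genes with 0 counts in a whole group. Apoc3, Apoa5 and Alb were named as neighbours of Apoa1, Apoa4 and Afp. Fga, Serpind1, Hnf4g, Onecut1 and Nepn were named because of the level filter. Car4, Spink1, Rhox5, Hbb-bh1, Pecam1, Apoe, Trf and Trh were singled out after their values were seen. Members of the blood, feeder, parietal and definitive endoderm lists serve as markers of other cells. Alternatives were edgeR's quasi-likelihood test, DESeq2 1.42.0, other scalings and filters, a fold threshold, quality weights, the 2 groups compared alone, a replicate block, and leaving out libraries.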

Additional observations from a re-analysis of the deposited data

Results flagged for a closer look

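Every gene named by rule was screened in each group for a library far from the other 3, with Dixon's ratio at the 95% critical value. Of 111 groups of values from 37 genes, 18 were beyond it. This count cannot be set against a chance rate, because the genes share the same libraries and CPM were screened without a log scale. A group with 0 in all but 1 library also exceeds the critical value at any level. Plg, Fgb and 1700011H14Rik were among the loci most alike to the mean profile above, so their flags are not independent of that choice. In Eo−, replicate 1 lay beyond the critical value on the high side for 10 genes. It reached 3.83 CPM for Ttr (next library 0.625), 0.409 CPM for Apoa4 (next 0.0901), 2.54 CPM for Apob (next 0.647), 0.424 CPM for Afp (next 0.0726) and 1.93 CPM for Cubn (next 0.685). The same library held 0.0742 CPM of Apoc3 (next 0.0167), 0.0836 CPM of Fgb (0 in the other 3), 0.279 CPM of Plg (next 0.0505) and 0.0612 CPM of 1700011H14Rik (next 0.0188). For Vtn it held 0.365 CPM, close to the next library at 0.291 CPM. In Eo+, replicate 1 stood apart for Cubn alone, at 4.56 CPM against 0.912 CPM in the next library.

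Among ESC libraries, replicate 6 was beyond it on the high side for Apoa1 (0.240 CPM, next 0.139) and Plg (0.0524 CPM, next 0.0205). Replicate 5 was beyond it on the low side for Hnf4a (0.247 CPM, next 0.917) and Scarb1 (22.9 CPM, next 28.1). Values at or below the floor of 3 counts were also far from 0 in the other libraries, for Apoa4 in ESC replicate 5 (0.00256 CPM) and for Fgb in ESC replicate 1 (0.00123 CPM). Scarb1 was highest in Eo− replicate 2 at 63.5 CPM, close to the next library at 61.3 CPM. In the Eo− library of replicate 1, markers of primitive blood and endothelium summed to 245 CPM, the highest of the 4. Their part in the values above was not tested.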

How the results depend on the processing

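Over 24 or fewer alternatives per gene and comparison, 556 of 624 values of the 9 genes kept their direction and side of the threshold. Apob in Eo− vs ESC turned to 0.04 in edgeR, 0.0 in DESeq2 and 0.01 without Eo− replicate 2. Afp in Eo− vs ESC turned to 1.15 in edgeR, 1.11 in DESeq2, 0.68 with the replicate block, and 0.39 and 0.36 without Eo− replicates 2 and 6. Amn in Eo+ vs Eo− turned to 0.01 without Eo+ replicate 2. Cubn in Eo+ vs Eo− turned to −0.08 with quality weights, −0.05 without Eo− replicate 6, −0.63 without Eo+ replicate 1 and −0.18 without replicate 1 of all 3 groups. None of these was called. Without single libraries the ranges were −0.9 to 0.01 (Apob), −1.36 to 0.39 (Afp), −0.5 to 0.01 (Amn) and −0.63 to 0.88 (Cubn).

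In Eo− vs ESC, 5 of the 9 genes were called by edgeR, by DESeq2 and without replicate 1 of all 3 groups, 6 with the 2 groups alone or the replicate block, and 3 to 6 without single libraries. In Eo+ vs Eo− a filter of 1 CPM left 3 called of 7 tested. Apoa4 and Afp were no longer tested, and Apoa1 was tested but not called. Loci called at a 2-fold change numbered 7208, 5348 and 3912 (Eo+ vs ESC, Eo− vs ESC, Eo+ vs Eo−), and 33778, 27776 and 14761 without a filter, which tests 69779 loci. Apolipoprotein genes called in Eo+ vs ESC were 3 at 2-fold, 8 without a filter, 3 with 2 groups and 3 to 5 without single libraries. They were 7 without a filter (Eo− vs ESC) and 3 of 4 tested at 1 CPM (Eo+ vs Eo−). Uptake genes at 2-fold were 3 (Eo− vs ESC) and 5 (Eo+ vs Eo−). At 1 CPM only 1 plasma-type gene was still tested, and 1, 0 and 1 were called in the order above. Plasma-type genes called in Eo− vs ESC were 7 by DESeq2 or the block, 4 higher and 3 lower. In Eo+ vs Eo− they were 4 with 2 groups and 4 to 7 without single libraries. With the block, 8 endoderm transcription factors were called in Eo− vs ESC. Apart from what is named, the cause of these shifts was not tested.

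Replicate numbers correlated at −0.117 to 0.417 between ESC and sorted libraries, so they were not taken to pair ESC. The block moved loci called to 14057, 12308 and 9838, and in Eo− vs ESC it called Ttr (7.16, adjusted p = 2.61e-05), Apoa1 (2.87, 0.000454) and Cubn (−1.47, 0.0151). In the other 2 comparisons it changed no call of the 9 genes but that of Ttr in Eo+ vs Eo−. The alternatives with the sorted fractions alone and without replicate 1 were chosen after seeing the data. Ratios over 1 or 2 ESC counts carry wide counting intervals.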
